A study of Mus musculus with 20 samples.

Results

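The difference between high-fat and chow feeding in mouse white adipose tissue was measured over both drinks at once, as the diet term of a model that also holds the drink. All 20 deposited libraries entered, 10 from high-fat-fed and 10 from chow-fed mice, which is every library of the series. The 4 groups of 5 mice received chow with water, chow with an aqueous Tibetan tea extract, made from a dark tea, high-fat feed with water, or high-fat feed with that extract, for 10 weeks. The labels give no strain, sex, age, adipose depot or hour of collection, so none of these can be set against the groups. Each diet thus holds 5 water drinkers and 5 tea drinkers, and a gene that follows diet whatever the drink is one whose difference is seen in each of these pairs of groups, which share no mouse.

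White adipose tissue stores triglyceride in fat cells and secretes hormones such as leptin, and it also holds macrophages, progenitors, vessels and nerves. High-fat feeding is widely used in mice to enlarge fat cells and draw macrophages into the tissue. Fat cells also run a circadian clock, a feedback loop in which the activators CLOCK, BMAL1 (gene Arntl) and NPAS2 switch on the genes of their own repressors, the PER and CRY proteins, and of output factors such as DBP. The nuclear receptors REV-ERB (Nr1d1, Nr1d2) and ROR (such as Rora and Rorb) close a further loop by repressing or activating Arntl. Genes of the repressors and outputs peak at other hours of the day than Arntl.

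Levels are CPM, read counts divided by library size after TMM scaling of library sizes, fold changes are log2 values of high-fat over chow, and "called" means an adjusted p below 0.05 in edgeR's quasi-likelihood F test. The libraries held 53047057 to 93314761 reads in genes, and 21306 of 56805 annotated genes passed the filter on low counts. Fat cell markers took 1.16% to 6.74% of reads per library. Some libraries held transcripts of other organs: pancreas acinus genes held 40.5% of reads in chow water replicate 1 and at most 0.00848% elsewhere, kidney genes 2.77% in high-fat tea replicate 4, and genes of epididymis, seminal vesicle and testis 5.89% in high-fat water replicate 4. The skeletal muscle share was 4.03% in replicate 1 and 1.07% in replicate 3 of high-fat tea, and 3.70% in replicate 5 of high-fat water. The part of these transcripts in the diet differences was not tested. Results without 3 or 9 such libraries are given for described genes whose call they end, and for some counts. The 3 are replicate 1 of chow water and replicate 4 of high-fat water and of high-fat tea. The 9 are replicates 1 and 2 of chow water, 1 of chow tea, 3, 4 and 5 of high-fat water, and 1, 3 and 4 of high-fat tea. Most of the 9 are high-fat libraries, so that fit holds fewer high-fat than chow mice. The part of the smaller groups in calls that ended was not tested. Other list counts moved by over 1.5 times as well. Called collagens went from 4 to 9 without 3 libraries. Those of glycolysis, pentose phosphate and citric acid cycle went from 4 to 2 without 9. In bulk tissue, fewer cells of a type and less RNA per cell cannot be told apart.

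The diet term called 3055 of 21306 genes (14.3%), 1628 higher on the high-fat diet (7.64%) and 1427 lower (6.7%), and 911 of the 3055 differed by at least 1 on the log2 scale. Clock genes reported here were 7 of the 40 genes whose libraries did not overlap between the diets, with outputs and most repressors higher and activators lower. Leptin and 7 of 12 fat cell expansion genes rose, while the genes of lipogenesis and of glucocorticoid response that the diet term called were lower and those of branched-chain amino acid breakdown and drug metabolism mostly lower. Fitted within each drink, the same contrast called 3232 genes in water drinkers (15.2%, with 8.06% higher and 7.11% lower) and 38 in tea drinkers (0.178%), 8 higher (0.0375%) and 30 lower (0.141%). In 28 genes (0.131%) the difference was called in each drink and in the same direction. They were 0.866% of the genes called in water drinkers and 73.7% of those called in tea drinkers. Without 3 libraries that held other-organ transcripts the counts were 4546 for the diet term, 292 in tea drinkers and 216 in both, and without 9 such libraries they were 2045, 5 and 5.

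The clock activators were lower in every high-fat library than in any chow library. The labels give no hour of collection, so for clock genes a difference in hour between the groups cannot be told apart from diet. Npas2, which can replace CLOCK as a partner of BMAL1 (chromosome 1, 39232812 to 39402317, plus strand), ranged from 13.3 to 41.4 CPM (median 25.1) in chow libraries and 0.581 to 2.46 CPM (median 1.35) in high-fat libraries. The 10 high-fat libraries lay below all 10 chow libraries, and the level was 19.3-fold lower (log2 −4.27, SE 0.27, adjusted p = 4.8e-08). Arntl (chromosome 7, 112806672 to 112913333, plus strand) ranged from 16.1 to 48.5 CPM (median 32.4) in chow libraries and 1.95 to 10.6 CPM (median 3.83) in high-fat libraries. Again no high-fat library reached the lowest chow library, and the gene fell 7.10-fold (log2 −2.83, SE 0.21, adjusted p = 3.32e-07). Clock (chromosome 5, 76357715 to 76452639, minus strand) ranged from 82.3 to 122 CPM (median 107) in chow libraries and 51.1 to 77.5 CPM (median 69.5) in high-fat libraries, a smaller difference but without overlap (log2 −0.69, SE 0.07, adjusted p = 4.64e-05). All 3 activators were called in each drink: Npas2 at −4.65 in water drinkers and −3.90 in tea drinkers, Arntl at −2.72 and −2.93, and Clock at −0.59 and −0.78. The interaction of diet and drink was not called for any of them (adjusted p = 0.464, 0.863 and 0.568).

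The output gene Dbp moved the other way. Dbp, a transcription factor that binds D-box sites (chromosome 7, 45354512 to 45359627, plus strand), ranged from 1.97 to 10.4 CPM (median 5.39) in chow libraries and 48.4 to 84.3 CPM (median 67.6) in high-fat libraries. No chow library came near the lowest high-fat library, and the fold was 13.5 (log2 3.75, SE 0.27, adjusted p = 2.98e-07). Its relatives Tef and Hlf, which bind the same kind of site, rose as well. Tef ranged from 41.7 to 152 CPM (median 89.5) in chow libraries and 133 to 373 CPM (median 246) in high-fat libraries, so the groups overlapped slightly (log2 1.36, SE 0.16, adjusted p = 0.000115), and it was called in each drink (1.44 in water drinkers, 1.28 in tea drinkers). Hlf was called by the diet term (log2 1.5, SE 0.33, adjusted p = 0.00607) but in neither drink alone (adjusted p = 0.105 with water and 0.0845 with tea). Nfil3, a repressor that competes for D-box sites, fell (log2 −1.71, SE 0.43, adjusted p = 0.0125), from a median of 30.3 to 8.22 CPM, with overlapping groups. Of the exonic bases of Dbp, 18% are shared with Sphk2, which lies on the other strand, and the counting did not use strand.

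Most repressors rose, while Cry1 fell and Per1 was not called. Bhlhe41 (chromosome 6, 145803969 to 145811284, minus strand) and Bhlhe40 encode basic helix-loop-helix repressors that compete for the activators' sites. Bhlhe41 ranged from 1.40 to 3.86 CPM (median 2.92) in chow libraries and 6.71 to 27.0 CPM (median 14.7) in high-fat libraries, with no overlap (log2 2.50, SE 0.23, adjusted p = 7.73e-06), and Bhlhe40 from 9.87 to 29.0 CPM (median 12.4) in chow libraries and 22.4 to 94.8 CPM (median 42.8) in high-fat libraries (log2 1.62, SE 0.28, adjusted p = 0.00152). Ciart, a further repressor of the activators, ranged from 0.640 to 2.87 CPM (median 1.27) in chow libraries and 2.04 to 12.8 CPM (median 8.84) in high-fat libraries, so that only the low end of the high-fat libraries reached the chow range (log2 2.49, SE 0.30, adjusted p = 0.000155). These 3 genes were called in each drink, with Ciart at 2.17 in water and 2.81 in tea drinkers. With 1 library left out in turn, Bhlhe40 was called in each drink in 5 of 20 fits, and Bhlhe41 and Ciart in all 20. Per3 (chromosome 4, 151088109 to 151129122, minus strand) ranged from 7.79 to 34.4 CPM (median 22.4) in chow libraries and 41.3 to 95.4 CPM (median 58.1) in high-fat libraries, again without overlap (log2 1.53, SE 0.20, adjusted p = 0.000335). It was called in water drinkers (1.76) and missed the threshold in tea drinkers (1.30, adjusted p = 0.0613). Per2 (log2 1.14, SE 0.25, adjusted p = 0.00578) and Cry2 (log2 0.61, SE 0.12, adjusted p = 0.003) rose, and Cry1 fell (log2 −0.68, SE 0.19, adjusted p = 0.0234). Per1 was not called (log2 −0.11, adjusted p = 0.773), with medians of 151 to 147 CPM. In all, 10 of the 11 activators and repressors were called, 6 higher and 4 lower, and 10 were called whichever library was left out.

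In the nuclear receptor loop the repressing receptors rose. Nr1d2, REV-ERB beta (chromosome 14, 4230569 to 4265642, plus strand), ranged from 27.3 to 77.5 CPM (median 52.1) in chow libraries and 83.8 to 138 CPM (median 124) in high-fat libraries, without overlap (log2 1.16, SE 0.14, adjusted p = 0.000133), and was called in each drink. With 1 library left out in turn, Nr1d2 was called in each drink in 6 of 20 fits. Nr1d1, REV-ERB alpha, ranged from 34.0 to 189.9 CPM (median 92.1) in chow libraries and 147 to 297 CPM (median 178) in high-fat libraries (log2 1.15, SE 0.21, adjusted p = 0.00226), and its rise was called in water drinkers (1.81) and not in tea drinkers (0.50, adjusted p = 0.245). The activating receptors Rora (log2 −0.14, adjusted p = 0.565) and Rorb (log2 0.19, adjusted p = 0.766) were not called. Of the 11 genes of the output and receptor list, 6 rose and 1 fell. The others that were tested without a call were Usp2, a deubiquitinase (log2 0.75, adjusted p = 0.339), and Wee1, a cell-cycle kinase (log2 0.78, adjusted p = 0.0561). Tspan4, a tetraspanin on this list, rose (log2 0.69, SE 0.13, adjusted p = 0.00288).

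**Figure D1:**
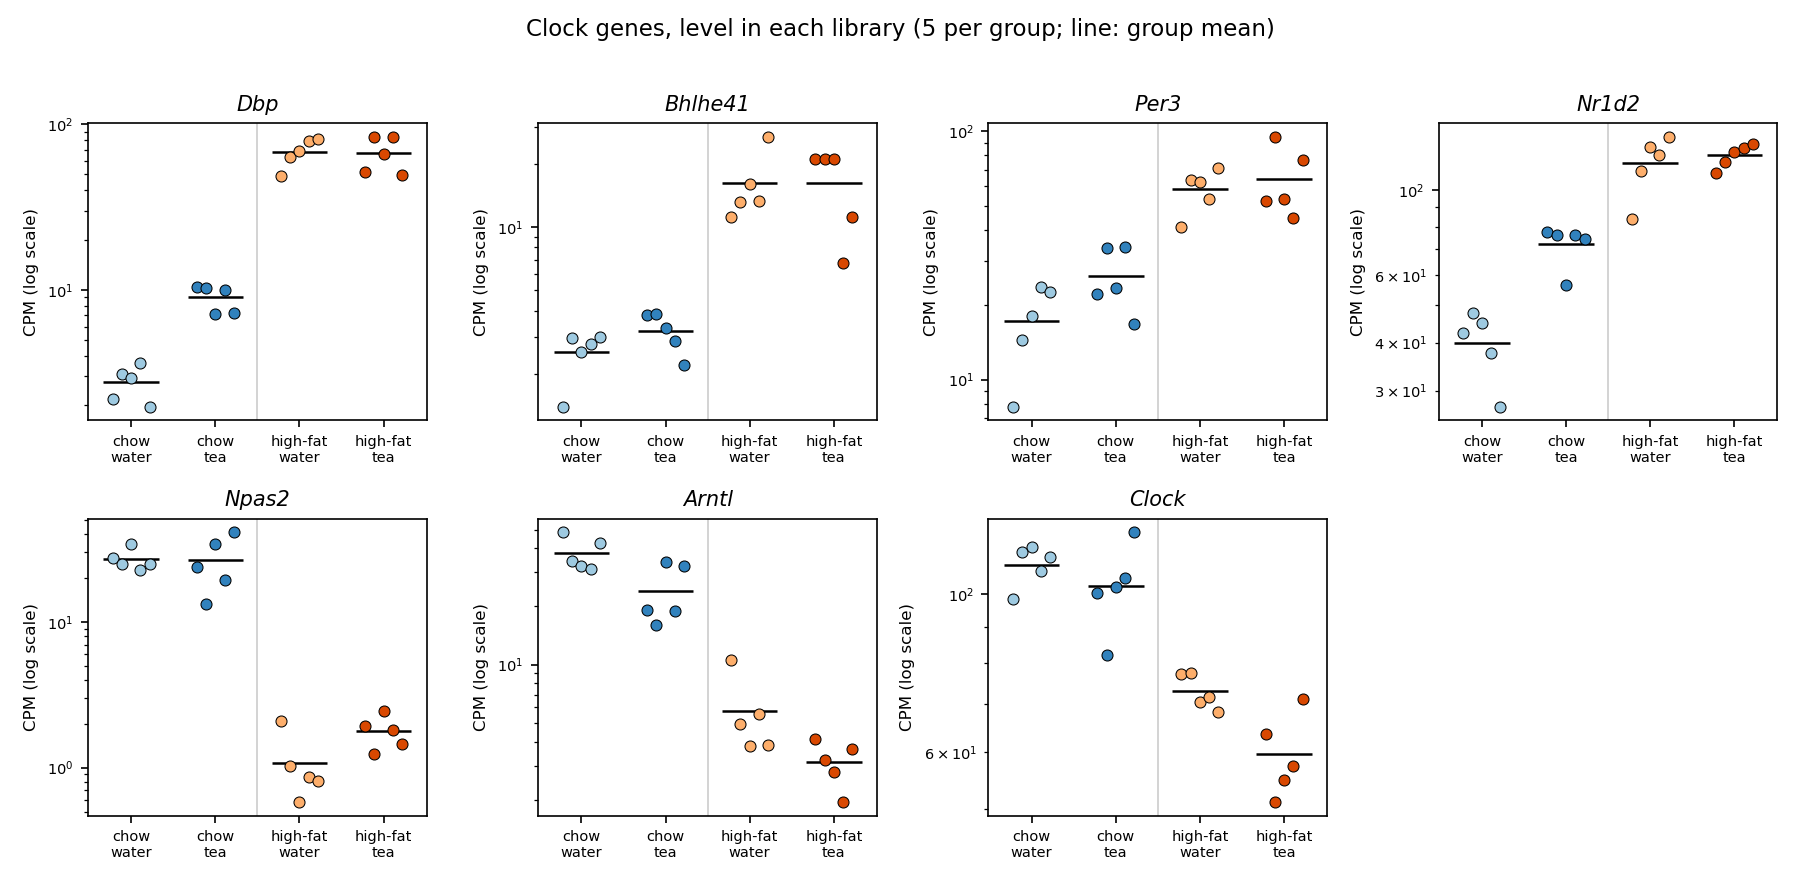
Level of 7 clock genes in each of the 20 libraries, in CPM on a log axis, with 5 points per group and a line at the group mean. Dbp, Bhlhe41, Per3 and Nr1d2 are higher and Npas2, Arntl and Clock lower in all 10 high-fat libraries than in any chow library, and the chow tea libraries of Dbp and Nr1d2 lie above the chow water libraries.

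For Dbp the size of the diet difference depended on the drink by the interaction test. Dbp stood at 2.77 ± 0.687 CPM (mean ± SD, n = 5) in chow water, 9.02 ± 1.68 in chow tea, 68.3 ± 13.4 in high-fat water and 66.9 ± 17.0 in high-fat tea libraries. The high-fat means were close and the chow means apart, and the rise was 4.62 in water drinkers and 2.89 in tea drinkers (difference of the log2 changes −1.73, SE 0.29, interaction adjusted p = 0.0291). The diets did not overlap in any library, although the size of the difference depended on the drink by this test of all 20 libraries. Without 9 libraries the interaction was called for 0 genes, and without chow water replicate 2 or 3 for 3 genes. Which genes kept an interaction call without 1 library is not given here. The interaction of Nr1d2 (difference of the log2 changes −0.78, SE 0.21, interaction adjusted p = 0.12) and of Nr1d1 (difference of the log2 changes −1.31, SE 0.29, interaction adjusted p = 0.107) was not called.

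Promoter sequence was looked up for 10 clock genes, and the 250 bases before the RefSeq start (GRCm38.p6, the build of the promoter table) were found for 9 of them. Bhlhe40 was not matched. The E-box CACGTG, the site of the activators, and the D-box (TTATGTAA or TTACGTAA), the site of DBP, TEF, HLF and NFIL3, were searched on both strands. The E-box occurs in 6.02% and the D-box in 0.932% of 32851 promoters of this length. Ciart held 3 E-boxes, starting 116, 58 and 44 bases before its start, Bhlhe41 held 1 at 153, and Tef held 1 before each of its starts. Per3 held 2 D-boxes, at 205 and 158 bases, and no E-box. No E-box or D-box was found in these windows of Dbp, Nr1d2, Npas2, Arntl and Clock. The ROR element core TAGGTCA, present in 2.23% of promoters, was found in none of these windows of the 9 genes. Bases after the start or further upstream were not searched, so a site there would be missed. The windows of 3 genes that rose and of 1 that fell are shown 5′ to 3′ on the gene's strand, with matches in capitals. They are chr3:95882229-95882478 (minus strand) for Ciart, chr4:151044666-151044915 (minus) for Per3, chr6:145865421-145865670 (minus) for Bhlhe41 and chr7:113207215-113207464 (plus) for 1 of the starts of Arntl. A match describes the letters only, and binding was not measured.
Ciart: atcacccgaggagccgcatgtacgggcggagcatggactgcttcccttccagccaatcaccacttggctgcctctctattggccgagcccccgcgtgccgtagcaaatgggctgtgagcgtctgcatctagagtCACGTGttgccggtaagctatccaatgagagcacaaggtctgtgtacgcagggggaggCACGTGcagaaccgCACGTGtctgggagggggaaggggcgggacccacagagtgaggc
Per3: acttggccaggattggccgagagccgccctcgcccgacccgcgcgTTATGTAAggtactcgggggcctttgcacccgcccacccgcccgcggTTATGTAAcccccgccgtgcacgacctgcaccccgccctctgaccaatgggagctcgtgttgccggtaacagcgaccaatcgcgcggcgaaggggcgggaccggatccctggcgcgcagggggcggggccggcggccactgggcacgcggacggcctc
Bhlhe41: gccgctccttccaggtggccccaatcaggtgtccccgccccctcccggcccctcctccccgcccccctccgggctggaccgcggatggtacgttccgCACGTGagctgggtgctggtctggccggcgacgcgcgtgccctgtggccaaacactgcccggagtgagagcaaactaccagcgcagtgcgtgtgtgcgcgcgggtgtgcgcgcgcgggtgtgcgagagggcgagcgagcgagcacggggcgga
Arntl: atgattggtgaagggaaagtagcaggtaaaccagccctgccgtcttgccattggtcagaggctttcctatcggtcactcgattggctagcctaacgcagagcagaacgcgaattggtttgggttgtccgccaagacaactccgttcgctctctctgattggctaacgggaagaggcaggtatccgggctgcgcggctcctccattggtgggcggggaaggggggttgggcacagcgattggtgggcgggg

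Besides 9 genes of the clock lists (Dbp, Bhlhe41, Bhlhe40, Ciart, Tef, Nr1d2, Npas2, Arntl and Clock), 19 genes were called in each drink, 2 higher and 17 lower. They are named here after their values were seen. The genes that rose were Flot1, a flotillin of membrane rafts (log2 1.00, SE 0.12), and Exoc4, a subunit of the exocyst complex that tethers secretory vesicles. Exoc4 (chromosome 6, 33226020 to 33950914, plus strand) ranged from 30.0 to 39.3 CPM (median 34.3) in chow libraries and 41.4 to 76.4 CPM (median 57.5) in high-fat libraries, with no overlap (log2 0.71, SE 0.07, adjusted p = 2.78e-05), at 0.84 in water and 0.58 in tea drinkers. Large falls were those of Smim41, a small membrane protein (log2 −2.80, SE 0.37), Scd3, a stearoyl-CoA desaturase that can share reads with Scd1 and Scd2 (log2 −2.65, SE 0.47), the transcript 4833411C07Rik (log2 −2.61, SE 0.33) and Agt, angiotensinogen (log2 −1.51, SE 0.22). Agt ranged from 102 to 485 CPM (median 247) in chow libraries and 40.5 to 178 CPM (median 66.1) in high-fat libraries, so the highest high-fat libraries lay within the chow range. Pmvk, phosphomevalonate kinase of the cholesterol pathway (chromosome 3, 89361848 to 89376320, plus strand), ranged from 34.9 to 102 CPM (median 66.7) in chow libraries and 12.2 to 32.8 CPM (median 29.9) in high-fat libraries, without overlap (log2 −1.28, SE 0.18, adjusted p = 0.000424). Its fall was −1.01 in water and −1.54 in tea drinkers.

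The other genes that fell in each drink work in several parts of the cell. Hacd2, a dehydratase of very long fatty acid elongation, fell (log2 −1.06, SE 0.16), as did Sik3, a salt-inducible kinase (log2 −1.01, SE 0.11), and Stt3b, a catalytic subunit of the oligosaccharyltransferase (log2 −0.90, SE 0.12). Sccpdh, a saccharopine dehydrogenase-like protein, ranged from 32.4 to 66.6 CPM (median 50.8) in chow libraries and 21.2 to 40.9 CPM (median 26.9) in high-fat libraries and was the 1 gene outside the clock lists called in each drink whichever library was left out. The 6 others with that property were Npas2, Arntl, Clock, Dbp, Bhlhe41 and Ciart. The rest of the 28 genes were called in each drink in 4 (Gm37305 and Pcbp2) to 17 (Pmvk and Stt3b) of the 20 fits. Bhlhe40, Scd3 and Agt were so called in 5, Nr1d2 in 6 and Smim41 in 7. Zfp740, a zinc finger protein (chromosome 15, 102111684 to 102124041, plus strand), ranged from 88.9 to 134 CPM (median 111) in chow libraries and 59.7 to 83.3 CPM (median 69.6) in high-fat libraries, with no overlap (log2 −0.69, SE 0.07, adjusted p = 4.06e-05). Smaller falls were those of Xrcc3, a DNA repair protein (−0.77), Mif4gd (−0.76), Pcbp2, an RNA-binding protein (−0.55), Cask, a membrane-associated kinase (−0.50), Kif2a, a kinesin (−0.49), and Slc25a46, a mitochondrial outer membrane protein (−0.39). The transcript Gm37305 (−1.34) completes the set. Of the exonic bases of Pcbp2, 33.7% overlap other genes.

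**Figure D2:**
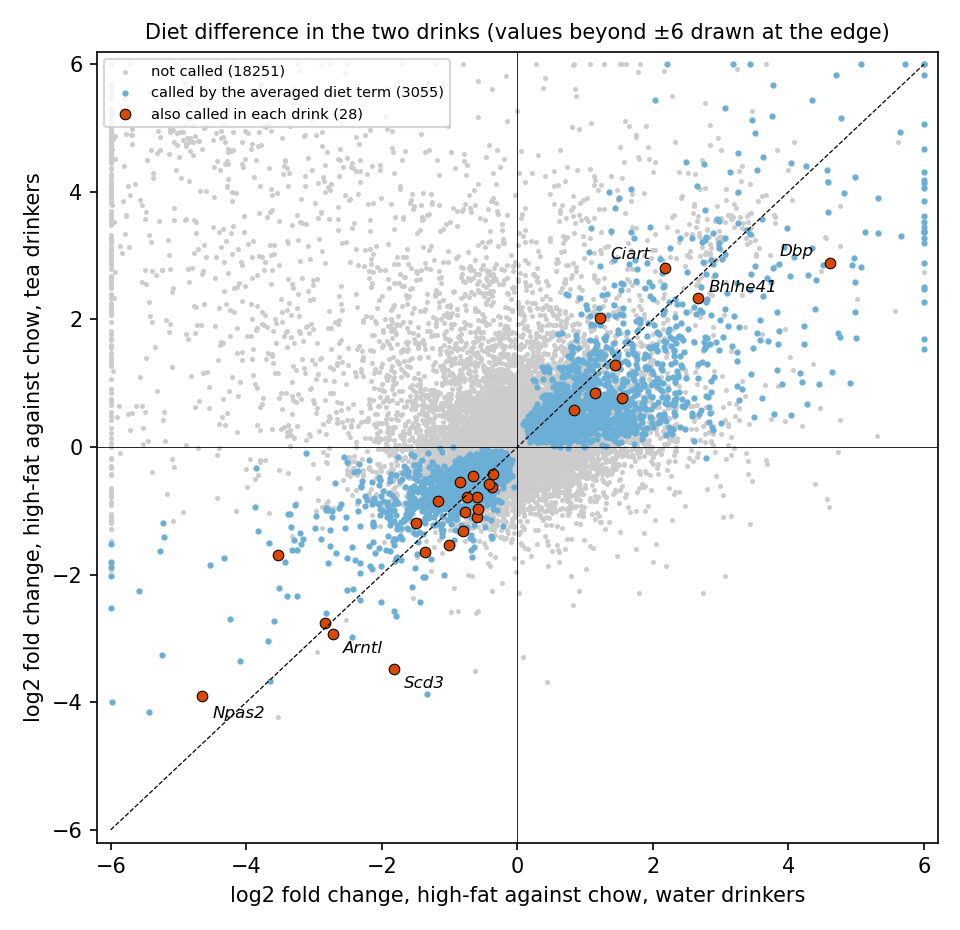
Log2 fold change of high-fat over chow in water drinkers (x) and in tea drinkers (y) for the 21306 tested genes, with the dashed line marking equal values. The 28 genes called in each drink (orange) lie on both sides of that line, while 2358 of the 3055 genes called by the averaged term (blue) had the larger change in water drinkers.

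The called genes mostly had the larger diet difference in water drinkers. Of the 3055 genes called by the diet term, 2358 had the larger difference in water drinkers, 1955 were also called in water drinkers only, 9 in tea drinkers only, and 1063 in neither drink alone. The 3232 genes called in water drinkers can be followed in the other 10 mice: 81.3% kept their sign there, against 63.4% of all tested genes. Those higher in water drinkers had a median log2 change of 0.99 there and 0.25 in tea drinkers, and those lower had medians of −1.01 and −0.25. The genes were picked by their water values, so some of that drop follows from the choice itself. In tea drinkers 29.1% of them had an unadjusted p below 0.05 by the edgeR test and the same sign. Of all tested genes 16.3% had such a p there, with either sign. The median standard error was 0.31 in either drink. Among the genes called in tea drinkers only were Apmap, a fat cell membrane protein (−1.73 in tea and −0.67 in water drinkers), Rce1, a prenyl protein protease (−1.42 and −0.37), and Pex16, a peroxisome assembly protein (−1.15 and −0.40), named after their values were seen. The interaction was called in 14 genes (0.0657%), 7 with a higher log2 change in tea than in water drinkers (0.0329%) and 7 with a lower one (0.0329%), and in 10 of the 3055. At an unadjusted p below 0.05 the interaction counted 3196 of all genes, and 565 of the 3055. The difference between drinks was called for these 14 genes, and for the rest a call in 1 drink and not in the other is no test of a difference.

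A stricter description is that all 10 high-fat libraries lay above, or all below, all 10 chow libraries. This held for 40 genes (0.188%), 15 above (0.0704%) and 25 below (0.117%), and 36 of them had a mean log2 CPM of at least 1. All 40 were called by the diet term, and again with each of the 20 libraries left out in turn, and 36 of them were called both without 3 and without 9 libraries with other-organ transcripts. The 40 were picked for their separation in these same libraries, so such calls largely follow from the choice and are no separate support. Without high-fat tea replicate 3, 139 genes did not overlap, without chow water replicate 1, 103, without high-fat tea replicate 4, 81, and without chow water replicate 5, 65. Of the 40 genes, 11 were called in each drink.

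Among the rises without overlap, Gpc1, the heparan sulfate proteoglycan glypican 1 (chromosome 1, 92759367 to 92788501, plus strand), ranged from 5.57 to 13.3 CPM (median 8.85) in chow libraries and 15.2 to 74.2 CPM (median 33.2) in high-fat libraries (log2 2.06, SE 0.26, adjusted p = 0.000212). High-fat tea replicate 1 held 57.0 CPM, above the other tea libraries on that diet. Hcn2, a pacemaker cation channel (chromosome 10, 79552468 to 79571942, plus strand), ranged from 0.679 to 1.39 CPM (median 1.13) in chow libraries and 1.73 to 5.09 CPM (median 3.47) in high-fat libraries (log2 1.44, SE 0.22, adjusted p = 0.000761), low levels that did not overlap. Epdr1, an ependymin-related secreted protein, ranged from 5.57 to 11.1 CPM (median 8.30) in chow libraries and 11.5 to 29.9 CPM (median 13.7) in high-fat libraries (log2 1.04, SE 0.19, adjusted p = 0.00195), and its call ended without 9 libraries (log2 0.62, adjusted p = 0.0595). The other rises were smaller. Hmgn3, a nucleosome-binding protein, rose by 0.91 (SE 0.15), Rab29, a Rab GTPase, by 0.86 (SE 0.14), Hps1, a subunit of a complex for lysosome-related organelles, by 0.70 (SE 0.10), Zmat5, a zinc finger protein of the minor spliceosome, by 0.58 (SE 0.11) and Iftap by 0.57 (SE 0.09). Of the exonic bases of Zmat5, 27.1% overlap Cabp7 on the opposite strand, and its call also ended without 9 libraries (log2 0.46, adjusted p = 0.0718). In tea drinkers alone none of these 8 genes was called, with log2 changes from 0.57 for Rab29 to 1.74 for Gpc1 (adjusted p = 0.0529).

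Falls without overlap included regulators of the cell cycle and of transcription. Cdkn1a, the cyclin-dependent kinase inhibitor p21 (chromosome 17, 29309950 to 29319701, plus strand), ranged from 106 to 358 CPM (median 234) in chow libraries and 12.7 to 96.2 CPM (median 54.9) in high-fat libraries (log2 −2.13, SE 0.28, adjusted p = 0.000331). Tead4, a transcription factor of the Hippo pathway (chromosome 6, 128201251 to 128277786, minus strand), ranged from 11 to 32.6 CPM (median 17.7) in chow libraries and 3.64 to 10.1 CPM (median 7.76) in high-fat libraries (log2 −1.43, SE 0.21, adjusted p = 0.000571). Msc, the helix-loop-helix factor musculin, fell (log2 −1.5, SE 0.27), as did Med18, a Mediator subunit (log2 −1.15, SE 0.16). Of the exonic bases of Msc, 21.2% overlap another gene. The highest high-fat library of each of these 4 genes lay just under the lowest chow library.

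Enzymes and a matrix protease fell in the same way. Adamts4, an aggrecan-cleaving protease (chromosome 1, 171077990 to 171088206, plus strand), ranged from 15.6 to 44.9 CPM (median 26.6) in chow libraries and 3.55 to 15.5 CPM (median 6.93) in high-fat libraries (log2 −1.67, SE 0.26, adjusted p = 0.000694) and did not overlap. Ddhd2, a lipase (chromosome 8, 26215373 to 26244624, minus strand), ranged from 92.9 to 210.1 CPM (median 130) in chow libraries and 34.7 to 90.1 CPM (median 64.2) in high-fat libraries (log2 −1.06, SE 0.17, adjusted p = 0.000996). Pde3a, a cyclic nucleotide phosphodiesterase (chromosome 6, 141194995 to 141453174, plus strand), ranged from 28.2 to 60.9 CPM (median 36.6) in chow libraries and 14.9 to 26.6 CPM (median 20.8) in high-fat libraries (log2 −0.87, SE 0.12, adjusted p = 0.000391). Agmo, which cleaves ether lipids (chromosome 12, 37291640 to 37632201, plus strand), ranged from 76.4 to 94.9 CPM (median 88.4) in chow libraries and 22.8 to 72.7 CPM (median 50.7) in high-fat libraries (log2 −0.79, SE 0.15, adjusted p = 0.00327). The lowest value of Agmo was that of high-fat tea replicate 4, which also held the most kidney transcripts, and the log2 change without any 1 library ran from −0.84 to −0.70. Muc2, an intestinal mucin (chromosome 7, 141276583 to 141308430, plus strand), ranged from 9.96 to 305 CPM (median 11.2) in chow libraries and 1.02 to 6.06 CPM (median 2.29) in high-fat libraries. The highest value was in chow water replicate 1, with intestine genes at 0.492% of reads against a chow median of 0.00282%. Without that library the log2 change of Muc2 was −2.14 in place of −3.31, and it was still called.

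**Figure D3:**
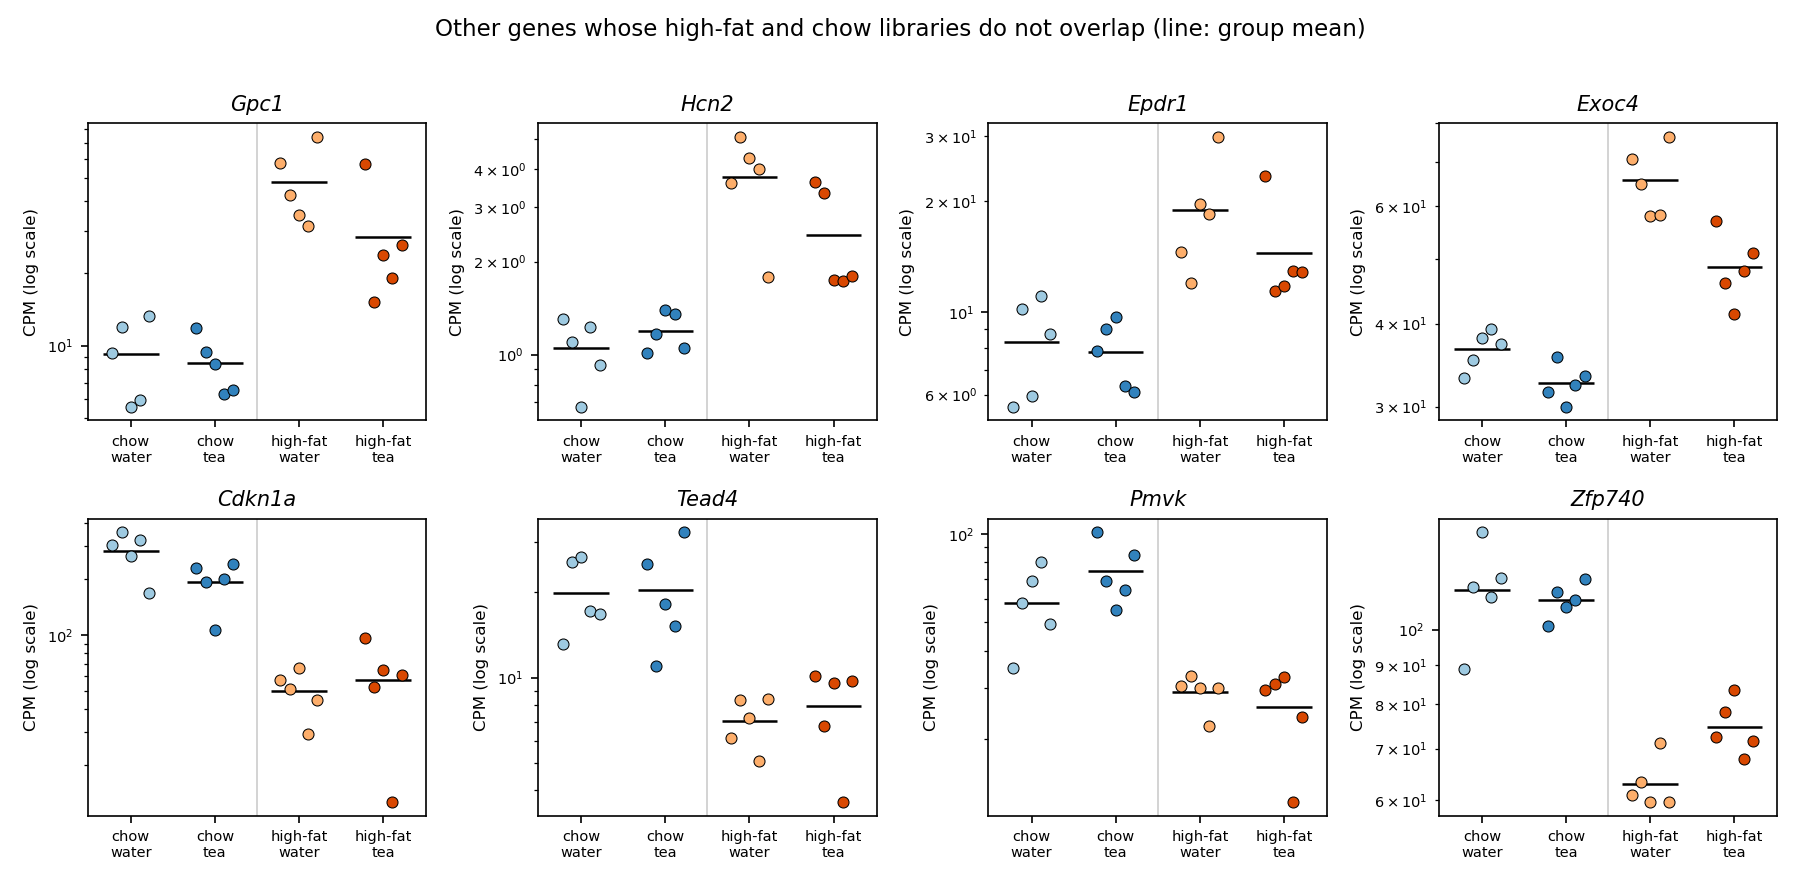
Level of 8 further genes without overlap between the diets in each library, in CPM on a log axis, with 5 points per group and a line at the group mean. Gpc1, Hcn2, Epdr1 and Exoc4 are higher and Cdkn1a, Tead4, Pmvk and Zfp740 lower in all 10 high-fat libraries.

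A further 12 genes did not overlap but fall outside the naming rule's 15 per direction or its limits on level and symbol, and are named after their values were seen. Besides Clock and Kif2a they were Wdr75 (−0.36), a ribosome biogenesis factor, Polr1d (−0.44), a subunit of RNA polymerases I and III, Npepps (−0.31), the puromycin-sensitive aminopeptidase, Ssu2 (−1.45), Pramel13 (3.46) and 5 transcripts with clone or predicted-gene names. Npepps ranged from 77.3 to 102 CPM (median 86.0) in chow libraries and 68.3 to 75.5 CPM (median 70.1) in high-fat libraries, a difference of 1.24-fold that no library crossed. Pramel13 was at most 0.12 CPM in chow libraries and at least 0.242 CPM in high-fat libraries, levels of few reads.

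Leptin and genes known to follow fat cell size rose. Lep (chromosome 6, 29060219 to 29073876, plus strand) ranged from 0.807 to 170.3 CPM (median 13.4) in chow libraries and 5.06 to 3080 CPM (median 947) in high-fat libraries, a wide spread with overlap, and the fold was 31.3 (log2 4.97, SE 0.83, adjusted p = 0.00109). The group means were 58.9 ± 64.3 CPM in chow water, 7.13 ± 6.83 in chow tea, 1608 ± 867 in high-fat water and 255 ± 389 in high-fat tea libraries (± SD, n = 5). The difference was called in water drinkers (4.77, adjusted p = 0.0128) and missed the threshold in tea drinkers (5.16, adjusted p = 0.0792), and the interaction was not called (adjusted p = 0.935). Of 12 fat cell expansion genes 7 rose and 0 fell, with a median of 1.00 against 0.05 over all tested genes, 1.48 in water and 0.72 in tea drinkers. Mest, an imprinted hydrolase-like gene (chromosome 6, 30723546 to 30748464, plus strand), ranged from 5.27 to 81.5 CPM (median 13.5) in chow libraries and 8.65 to 803 CPM (median 286) in high-fat libraries (log2 3.53, SE 0.65, adjusted p = 0.00217). Sncg, gamma-synuclein, ranged from 35.9 to 431 CPM (median 106) in chow libraries and 153 to 1142 CPM (median 643) in high-fat libraries (log2 2.16, SE 0.38, adjusted p = 0.00149), at 2.17 in water drinkers, where it was called, and 2.15 in tea drinkers (adjusted p = 0.0988). Npr3, the natriuretic peptide clearance receptor, rose from a median of 78.1 to 679.5 CPM (log2 2.49, SE 0.44, adjusted p = 0.00177). The lowest high-fat library of these 3 genes lay inside the chow range.

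Of 17 tested leptin and adipokine genes 6 rose and 2 fell, with a median of −0.21. Sfrp5, a secreted Wnt antagonist, ranged from 13.6 to 59.3 CPM (median 25.5) in chow libraries and 26.4 to 617 CPM (median 269.6) in high-fat libraries (log2 2.84, SE 0.53, adjusted p = 0.00224). Adiponectin, Adipoq, was not called (log2 −0.08, adjusted p = 0.879), with medians of 3086 to 3069 CPM. Cfd, the fat cell protease adipsin, ranged from 5089 to 20040 CPM (median 14730) in chow libraries and 1477 to 19420 CPM (median 3081) in high-fat libraries and fell (log2 −1.68, SE 0.39, adjusted p = 0.00877). Of 12 fat cell markers 2 fell and 0 rose (median −0.33), near the 14.3% of all genes called in either direction. Their summed share of reads had a median of 5.98% in chow and 4.14% in high-fat libraries, with the lowest values in replicate 1 of chow water (1.16%) and replicate 4 of high-fat tea (1.24%). Without chow water replicate 1, 4 of the 12 were called. The part of this share in the falls of fat cell genes was not tested. Pparg, the master regulator of fat cell formation, was not called (log2 −0.51, adjusted p = 0.146), but was without 3 libraries (log2 −0.42, adjusted p = 0.0204). Of 20 adipogenic factors, Klf15 fell (log2 −0.94, adjusted p = 0.0234) and Zfp467 rose (log2 0.43, adjusted p = 0.0371), though the latter call ended in 13 of the 20 fits without 1 library. The list's count of 2, a smaller share than the 14.3% of all genes called, was 1 in 13 fits, 4 without 3 libraries and 0 without 9.

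Called genes of lipogenesis and of triglyceride synthesis were lower by the averaged term, and those of desaturation went both ways. Of 19 genes of de novo lipogenesis 0 rose and 5 fell, with a median of −0.28, while in water drinkers alone 3 were called higher and 4 lower. Tkt, transketolase of the pentose phosphate pathway, ranged from 477 to 2310 CPM (median 979) in chow libraries and 218 to 726 CPM (median 302) in high-fat libraries (log2 −1.55, SE 0.28, adjusted p = 0.00174). Slc25a1, the mitochondrial citrate carrier (log2 −1.10, SE 0.25, adjusted p = 0.0079), and Acacb, acetyl-CoA carboxylase 2 (log2 −1.34, SE 0.36, adjusted p = 0.0181), fell as well. Fasn, fatty acid synthase, ranged from 911 to 9745 CPM (median 3177) in chow libraries and 134 to 3529 CPM (median 936) in high-fat libraries and fell (log2 −1.71, SE 0.52, adjusted p = 0.034), but the call ended in 10 of the 20 fits without 1 library. The count of 5 was 2 without 9 libraries, 9 without 3, 8 without high-fat tea replicate 4, and 3 without replicate 4 of chow water or replicate 1, 3 or 4 of high-fat water. Tkt, Slc25a1, Acacb and Fasn were not called without 9. Of 24 triglyceride synthesis and lipid droplet genes 5 fell and 0 rose (median −0.25), or 9 without chow water replicate 1, and in water drinkers alone 1 was called higher and 2 lower. The 5 that fell included Gpam, the first acyltransferase of the pathway (log2 −0.91, SE 0.18, adjusted p = 0.00356), Dgat1, its last (log2 −1.02, SE 0.23, adjusted p = 0.00672), and Fitm2 (log2 −0.72, SE 0.19, adjusted p = 0.0185). Scd1, the main desaturase of fat, was not called (log2 −0.89, adjusted p = 0.196), with medians of 78530 to 42730 CPM, although DESeq2 (adjusted p = 0.0072) and the fit without 3 libraries (adjusted p = 0.00675) called it lower. Of 16 desaturases and elongases Scd3 fell, and Degs1 (0.69), Elovl1 (0.38) and Scd2 (1.30) rose. That count of 4 was 2 in 8 of the 20 fits without 1 library and 7 without 3 libraries, and Elovl1 lost its call in 14 of the 20 fits, with limma voom (adjusted p = 0.0519) and with DESeq2's size factors (adjusted p = 0.0549).

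Genes of fat breakdown were called in both directions, and those of fat oxidation were lower where called. Of 20 lipolysis and adrenergic genes 3 rose and 4 fell, and those with the lowest p besides Npr3 were the phosphodiesterases Pde4d (log2 −1.80, SE 0.34, adjusted p = 0.00235) and Pde3b (log2 −1.0, SE 0.22, adjusted p = 0.00669), which degrade cyclic AMP. Of 27 fatty acid oxidation genes 0 rose and 4 fell (median −0.22, −0.41 in water and −0.02 in tea drinkers). That share is near the 14.3% of all genes called in either direction. In water drinkers alone 3 were called lower, and in tea drinkers 0. The 4 included Pdk4, a kinase that shuts down pyruvate dehydrogenase (log2 −1.32, SE 0.29, adjusted p = 0.00643), and Ppargc1b, a coactivator of mitochondrial genes (log2 −1.08, SE 0.29, adjusted p = 0.0193). The count was 7 without high-fat tea replicate 4 and 2 without any 1 of 6 other libraries. Slc25a20, the carnitine carrier, lost its call in 8 of 20 fits without 1 library (log2 −0.66, adjusted p = 0.0318). Of 36 nuclear oxidative phosphorylation genes 1 fell, Atp5c1 (log2 −0.44, adjusted p = 0.0376), and that call ended in 12 of the 20 fits. Of 19 thermogenic genes none was called by edgeR's test, at medians of −0.36 in water and 0.13 in tea drinkers, while DESeq2 called 2 and the fit without 3 libraries 3. Ucp1, the uncoupling protein, ranged from 0.590 to 510.1 CPM (median 141) in chow libraries and 0.894 to 869 CPM (median 172) in high-fat libraries (log2 0.33, adjusted p = 0.89).

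Called genes of branched-chain amino acid breakdown were lower with 1 exception. Of 22 breakdown genes 9 fell and 1 rose, with a median of −0.35, −0.47 in water and −0.12 in tea drinkers. In water drinkers alone 1 was called higher and 10 lower, and in tea drinkers 0. The count of 10 was 7 in 11 of the 20 fits without 1 library, 13 without 3 libraries and 10 without 9. Hsd17b10, a mitochondrial dehydrogenase of isoleucine breakdown (chromosome X, 150784841 to 150787438, plus strand), ranged from 134 to 409 CPM (median 228) in chow libraries and 62.6 to 289 CPM (median 73.2) in high-fat libraries (log2 −1.34, SE 0.20, adjusted p = 0.000605), and Mccc2, a subunit of the leucine pathway's carboxylase, from 61.9 to 184 CPM (median 139) in chow libraries and 55.9 to 139 CPM (median 76.3) in high-fat libraries (log2 −0.74, SE 0.13, adjusted p = 0.00161). The 1 gene that rose was Bcat1, the cytosolic aminotransferase, which ranged from 0.645 to 2.61 CPM (median 1.07) in chow libraries and 1.16 to 14.8 CPM (median 6.38) in high-fat libraries (log2 2.15, SE 0.31, adjusted p = 0.000471) and is the isoform outside mitochondria. Of 25 insulin signalling and glucose transport genes 5 fell and 2 rose, a count of 7 that fell to 4 when replicate 1 of high-fat water was left out and was 12 without 3 libraries. Insr, the insulin receptor, ranged from 181 to 358 CPM (median 301) in chow libraries and 125 to 279.5 CPM (median 174) in high-fat libraries (log2 −0.63, SE 0.12, adjusted p = 0.00215), and Grb14, an adaptor that inhibits the receptor, rose (log2 1.55, SE 0.35, adjusted p = 0.00775) while its relative Grb10 fell (log2 −0.67, SE 0.19, adjusted p = 0.0244). In glycolysis, the pentose phosphate pathway and the citric acid cycle 2 of 26 rose and 2 fell, a share near the 14.3% of all genes called, with Tpi1, triosephosphate isomerase, at 1.04.

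Called genes of glucocorticoid response were lower, as were most of those of drug metabolism. Of 16 glucocorticoid response genes 6 fell and 0 rose, with a median of −0.79, −1.44 in water and −0.21 in tea drinkers. Besides Cdkn1a these included Ddit4, an inhibitor of mTOR, which ranged from 257 to 754 CPM (median 469.5) in chow libraries and 56.7 to 415 CPM (median 157) in high-fat libraries (log2 −1.37, SE 0.30, adjusted p = 0.0062), and Hsd11b1, which regenerates active glucocorticoid inside cells (log2 −1.30, SE 0.31, adjusted p = 0.00927). Of 28 xenobiotic metabolism genes 8 fell and 2 rose (median −0.53, −0.86 in water and −0.11 in tea drinkers). Cyp2d22, of the cytochrome P450 family (chromosome 15, 82254728 to 82264461, minus strand), ranged from 99.7 to 238 CPM (median 201) in chow libraries and 36.8 to 132 CPM (median 54.6) in high-fat libraries (log2 −1.45, SE 0.18, adjusted p = 0.000212), and Sult1a1, a sulfotransferase, fell as well (log2 −1.17, SE 0.19, adjusted p = 0.000856). Ephx1, microsomal epoxide hydrolase, rose from a median of 83.5 to 139 CPM (log2 0.88, SE 0.16, adjusted p = 0.00187). Of 23 NRF2 antioxidant genes (median −0.15, −0.60 in water and 0.25 in tea drinkers) 3 fell and 0 rose, a share near the 14.3% of all genes, namely Gsta3, a glutathione transferase (−1.13), Cat, catalase (−0.95), and Sod1, superoxide dismutase (−0.55). In water drinkers alone 8 of the list were called lower. Without high-fat tea replicate 4 alone, 7 genes of that list were called. The xenobiotic count of 10 was 16 without high-fat tea replicate 2. In the integrated stress response 3 of 18 rose and 3 fell, with Sesn2, a sestrin (log2 −1.18, SE 0.18, adjusted p = 0.000694), and Asns, asparagine synthetase (log2 −1.40, SE 0.26, adjusted p = 0.00258), lower and Ddit3, the factor CHOP, higher (log2 0.46, SE 0.11, adjusted p = 0.0102).

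**Figure D4:**
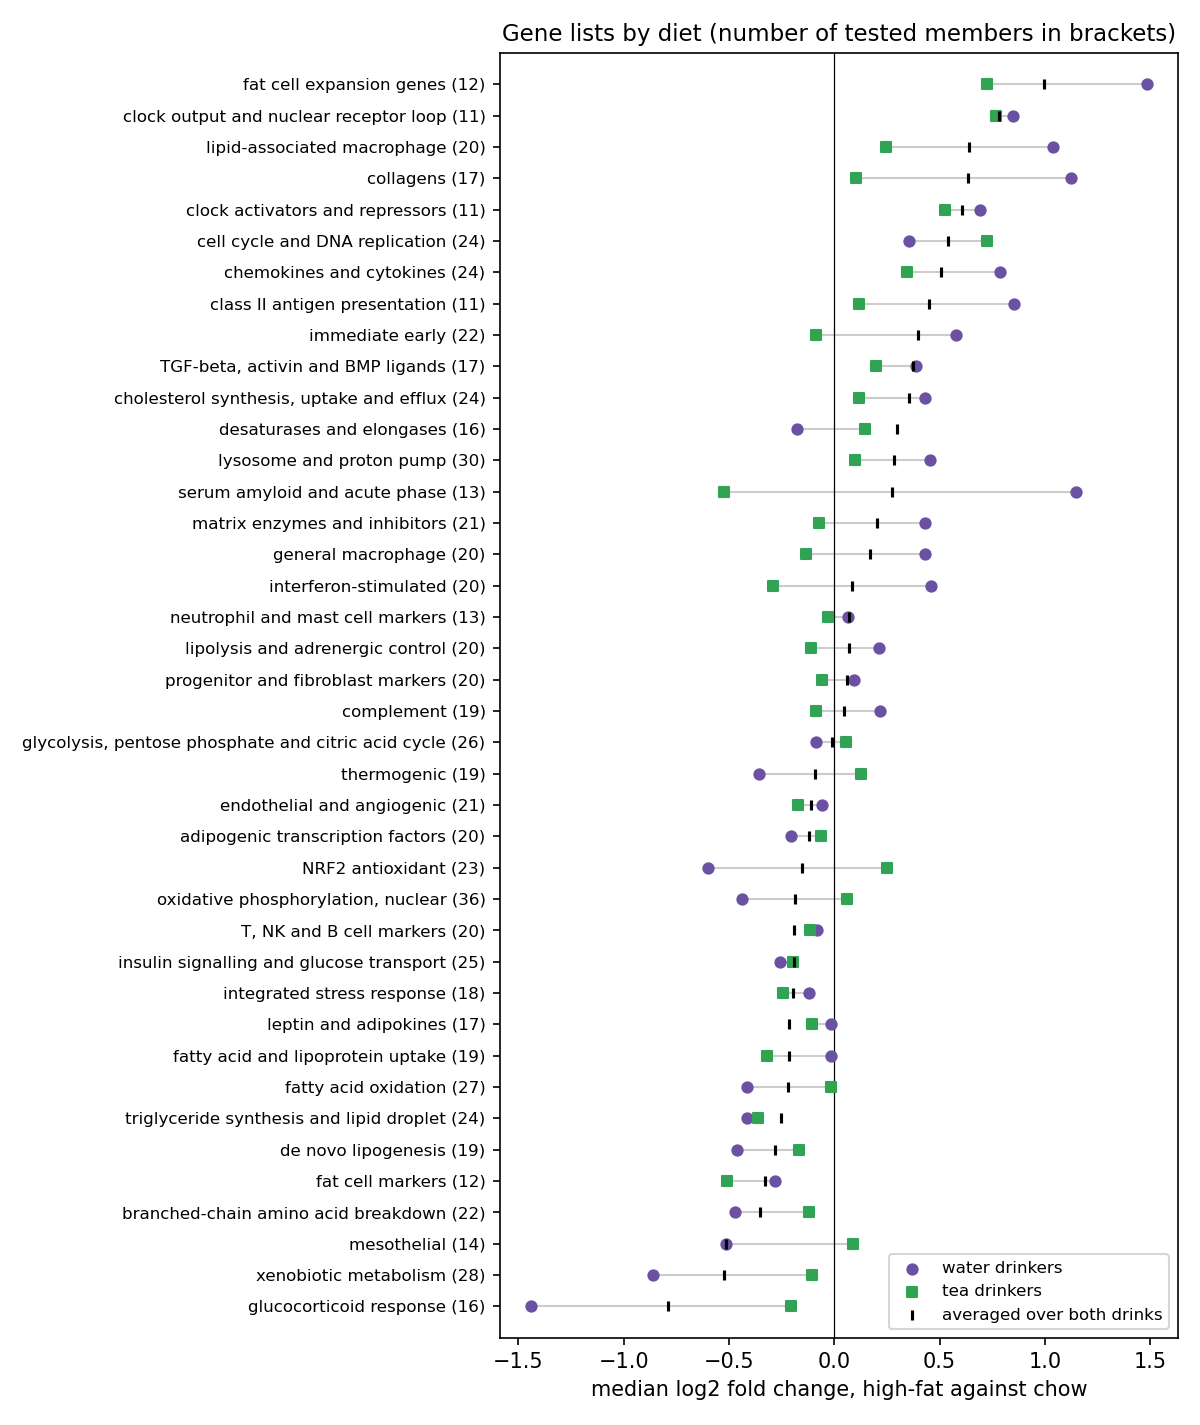
Median log2 fold change of high-fat over chow for 40 gene lists, in water drinkers (circles), in tea drinkers (squares) and averaged over both (ticks), with the number of tested members in brackets. Fat cell expansion genes lie furthest to the right at 1.00 and glucocorticoid response genes furthest to the left at −0.79 by the averaged value.

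Genes of lipid-associated macrophages were called higher, and 3 general macrophage genes lower, by the averaged term. Of 20 lipid-associated macrophage genes 7 rose and 0 fell (median 0.64, 1.04 in water and 0.25 in tea drinkers). In water drinkers alone 12 were called higher, and in tea drinkers 0. Mmp12, macrophage elastase (chromosome 9, 7344381 to 7369499, plus strand), ranged from 0.215 to 2.88 CPM (median 0.822) in chow libraries and 1.67 to 294 CPM (median 76.0) in high-fat libraries (log2 5.65, SE 0.85, adjusted p = 0.000602), Atp6v0d2, a proton pump subunit, from 0.717 to 4.69 CPM (median 1.37) in chow libraries and 1.45 to 130.4 CPM (median 29.3) in high-fat libraries (log2 3.95, SE 0.64, adjusted p = 0.000981), and Itgax, the integrin CD11c, from 1.12 to 18.5 CPM (median 2.30) in chow libraries and 2.56 to 94.4 CPM (median 27.2) in high-fat libraries (log2 2.63, SE 0.53, adjusted p = 0.00359). The low end of the high-fat libraries overlapped the chow range in each of the 3. Trem2, a lipid receptor of these macrophages, rose (log2 2.27, SE 0.66, adjusted p = 0.0271), at 4.04 in water and 0.51 in tea drinkers, with an interaction that was not called (adjusted p = 0.107), and its call ended when replicate 2, 3, 4 or 5 of chow water or replicate 5 of high-fat tea was left out (adjusted p from 0.058 to 0.0616). Of 20 general macrophage genes (median 0.17, 0.43 in water and −0.14 in tea drinkers) none rose and 3 fell, a share near the 14.3% of all genes that was 1 gene without 9 libraries, and in water drinkers alone 3 were called higher and 2 lower. Those that fell were Cd14 (log2 −0.96, adjusted p = 0.00944), Mertk (log2 −0.52, adjusted p = 0.0152) and Cd163 (log2 −0.80, adjusted p = 0.0439), the last of which lost its call in 15 of 20 fits. Adgre1, the F4/80 antigen, was not called (log2 0.80, adjusted p = 0.117). The summed share of reads of the general list was 0.045% to 0.256% in chow and 0.074% to 0.377% in high-fat libraries. For the lipid-associated list the median share was 2.40% in chow and 2.43% in high-fat libraries. By drink it was 2.03% in chow water and 2.47% in high-fat water, and 2.42% in chow tea and 2.06% in high-fat tea libraries. Lpl, Cd36 and Plin2 of the lipid-associated list are also genes of fat cells.

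Of 11 class II antigen presentation genes 8 were called higher in water drinkers alone (median 0.85) and 0 in tea drinkers (median 0.12). By the averaged term 3 rose, Ctss, cathepsin S (log2 1.23, adjusted p = 0.0162), Ciita (log2 0.83, adjusted p = 0.0408) and H2-DMb1 (log2 0.78, adjusted p = 0.0452), and 1 was called without 3 or without 9 libraries and in 13 of the 20 fits without 1 library, against 5 without chow tea replicate 2 or high-fat tea replicate 4. Among 24 chemokines and cytokines 3 rose and 1 fell, a share near the 14.3% of all genes called. Il1rn, the interleukin 1 receptor antagonist, ranged from 0.296 to 2.65 CPM (median 0.863) in chow libraries and 1.10 to 47.7 CPM (median 8.77) in high-fat libraries (log2 2.93, SE 0.59, adjusted p = 0.00373). Cxcl14 rose (log2 1.07, adjusted p = 0.00563), and Cxcl13, a B cell chemokine, fell (log2 −2.02, adjusted p = 0.0182). Ccl2 (log2 1.22, adjusted p = 0.0812) and Tnf (log2 1.04, adjusted p = 0.176) were not called, although Ccl2 was by DESeq2 (adjusted p = 0.025) and by limma voom (adjusted p = 0.028). The count of 4 was 7 without chow tea replicate 1 or high-fat tea replicate 4. In the list of 20 lymphocyte markers Cd3e fell (log2 −1.26, adjusted p = 0.00948) and Il7r rose (log2 1.54, adjusted p = 0.0152), the latter not called without high-fat tea replicate 5 (adjusted p = 0.0538). These were the only calls of that list, a smaller share than the 14.3% of all genes called. No member of the neutrophil and mast cell list (13 tested), the interferon-stimulated list (20), the endothelial list (21) or the mesothelial list (14) was called by edgeR's averaged test, and DESeq2 called 1, 1, 0 and 1 of them. In water drinkers alone edgeR's test called 3 interferon-stimulated genes and 1 endothelial gene higher, and 1 mesothelial gene higher and 4 lower. The interferon-stimulated share was near, and the endothelial share below, the 15.2% of all genes called in water drinkers. Without 3 libraries the averaged test called 2 interferon-stimulated genes and 1 mesothelial gene, and without chow tea replicate 2 it called 2 interferon-stimulated genes. Of 30 lysosome and proton pump genes 7 rose and 1 fell, among them Gusb, beta-glucuronidase (log2 0.97, SE 0.19, adjusted p = 0.00327), and Tfeb, a regulator of lysosomal genes (log2 0.68, SE 0.13, adjusted p = 0.00346).

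Called collagens were higher. Of 17 collagen genes 4 rose and 0 fell (median 0.64, 1.12 in water and 0.10 in tea drinkers), a count of 9 without high-fat tea replicate 4. In water drinkers alone 8 were called higher, and in tea drinkers 0. Col15a1, a basement membrane collagen, ranged from 31.2 to 99.1 CPM (median 39.99) in chow libraries and 30.8 to 509 CPM (median 208) in high-fat libraries (log2 1.79, SE 0.38, adjusted p = 0.00528), and Col18a1 from 70.7 to 139 CPM (median 88.6) in chow libraries and 77.5 to 285 CPM (median 154) in high-fat libraries (log2 0.75, SE 0.16, adjusted p = 0.00448). Col1a1, the main fibrillar collagen, was not called (log2 0.38, adjusted p = 0.384). Of 21 matrix enzymes and inhibitors Loxl1, a lysyl oxidase, was the 1 called (log2 0.75, adjusted p = 0.0248), and 4 were called without high-fat tea replicate 2. Among 17 TGF-beta, activin and BMP ligands and inhibitors 4 rose and 1 fell, 3 of them called without replicate 3 or 4 of chow water, 4 of chow tea, 1 of high-fat water or 5 of high-fat tea, with Bmp3 (log2 1.79, SE 0.35, adjusted p = 0.00331) higher and Fst, follistatin, which binds activin, lower (log2 −1.16, SE 0.24, adjusted p = 0.00413). In the progenitor and fibroblast list Thy1 rose (log2 1.06, SE 0.22, adjusted p = 0.00441) and Dcn, decorin, fell (log2 −0.65, adjusted p = 0.0474), a call that ended in 13 of the 20 fits without 1 library and with limma voom (adjusted p = 0.0503). The list's count of 2, a smaller share than the 14.3% of all genes called, was 1 in 13 fits and without 9 libraries, 5 without 3 libraries and 4 without high-fat tea replicate 4. Among acute phase genes 3 of 13 rose and 2 fell, with Hp, haptoglobin, higher (log2 1.31, adjusted p = 0.0379) and Itih4 lower (log2 −1.80, adjusted p = 0.00898). That count of 5 was 2 in 10 of the 20 fits without 1 library and 3 without 9 libraries, and Hp lost its call in 11 of the 20 fits.

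In the cell cycle and DNA replication list 1 of 24 genes was called, E2f1, an S-phase transcription factor (log2 0.92, SE 0.24, adjusted p = 0.0157), with a list median of 0.54. The count was 18 without chow water replicate 1, the library with pancreas transcripts, 20 without 3 libraries, 11 without 9, 11 with limma voom and 4 with DESeq2. Mcm2, a subunit of the replicative helicase (log2 0.84, adjusted p = 0.0587), was called higher without 3 libraries (adjusted p = 0.00176) and without 9 (adjusted p = 0.00615). Kif20a, a mitotic kinesin (log2 0.68, adjusted p = 0.0916), was called without 3 libraries (adjusted p = 0.00764).

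In cholesterol synthesis, uptake and efflux 3 of 24 genes rose and 2 fell. Of 19 genes of fatty acid and lipoprotein uptake 1 rose and 3 fell, of 19 complement genes 1 rose and 1 fell, and of 22 immediate early genes 2 rose. The complement and immediate early shares were below the 14.3% of all genes called. The immediate early count was 0 without chow water replicate 3 and 4 without 3 libraries. Of its genes, Egr2 (log2 1.24, adjusted p = 0.0427) lost its call in 16 of the 20 fits without 1 library and Ier3 (log2 1.17, adjusted p = 0.0282) in 3. Neither was called without 9 libraries (Egr2 log2 1.37, adjusted p = 0.171, and Ier3 log2 0.44, adjusted p = 0.32), nor Ier3 without 3 (log2 0.55, adjusted p = 0.0737). Among 5 tested adrenal cortex genes 3 were called higher, with 1.53% of reads in high-fat water replicate 4. None of them was called without that library, without replicate 2 of high-fat tea, without any 1 of replicates 2 to 5 of chow water, or by DESeq2 or limma voom.

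Several calls ended without the 9 libraries with other-organ transcripts, most of them high-fat libraries, while the sign was kept. The part of the smaller groups in this was not tested. Among clock genes these were Per2 (log2 1.03, adjusted p = 0.127), Cry1 (−0.65, adjusted p = 0.0795) and Hlf (1.06, adjusted p = 0.0522). Among genes of metabolism they were Tkt, Slc25a1, Acacb, Fasn, Degs1, Elovl1, Pdk4, Ppargc1b, Slc25a20, Tpi1, Atp5c1, Grb10, Klf15, Zfp467 and Scd2, with adjusted p from 0.0616 for Tpi1 and Atp5c1 to 0.298 for Fasn. Among immune, matrix and other genes they were Mertk, Cd163, Ciita, H2-DMb1, Cd3e, Cxcl13, Dcn, E2f1, Rassf6 and Ano8, with adjusted p from 0.0549 for Cd3e to 0.309 for Cxcl13. Ciita and H2-DMb1 were not called without 3 libraries either (adjusted p = 0.052 and 0.0579).

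For some genes called by the averaged term the diet difference depended on the drink in the fit of all 20 libraries. Without 9 libraries the interaction was called for 0 genes. The interaction was called in 10 of the 3055 genes, and those described, among the ones with the lowest interaction p and a mean log2 CPM of at least 1, were Scd2, Septin9, Rassf6, Dbp and Ano8. Scd2 stood at 47.3 ± 16.1 CPM in chow water, 95.3 ± 12.8 in chow tea, 324 ± 82.2 in high-fat water and 84.8 ± 26.1 in high-fat tea libraries (mean ± SD, n = 5). Its diet difference was 2.78 in water and −0.17 in tea drinkers (difference of the log2 changes −2.95, SE 0.35, interaction adjusted p = 0.00238), so the average of 1.30 describes neither, and the averaged call ended in 13 of 20 fits without 1 library. Septin9, a cytoskeletal GTPase, stood at 145 ± 26.7 CPM in high-fat water and between 61.3 ± 5.10 and 73.9 ± 9.04 CPM in the other groups (difference of the log2 changes −1.21, SE 0.16, interaction adjusted p = 0.00616). Rassf6, a Ras association protein, stood at 0.884 ± 0.272 CPM in high-fat water and between 11 ± 5.80 and 13.9 ± 3.59 CPM elsewhere (difference of the log2 changes 3.52, SE 0.50, interaction adjusted p = 0.00946). Ano8, an anoctamin, stood at 23.5 ± 2.15 CPM in high-fat water and between 11.7 ± 1.95 and 12.4 ± 1.52 CPM elsewhere (difference of the log2 changes −0.99, SE 0.17, interaction adjusted p = 0.0291). In these 4 genes high-fat water libraries stood apart from the other 3 groups, while Dbp separated the diets in all libraries.

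**Figure D5:**
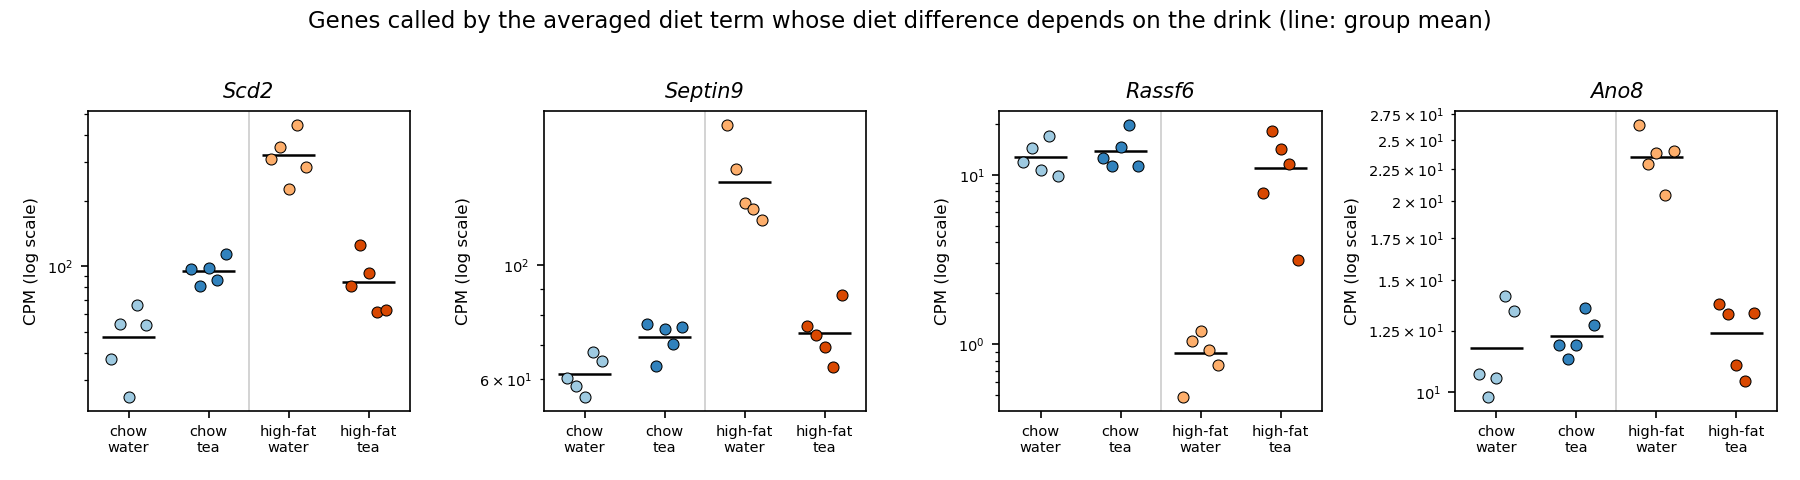
Level of Scd2, Septin9, Rassf6 and Ano8 in each library, in CPM on a log axis, with 5 points per group and a line at the group mean. High-fat water libraries stand apart, while most high-fat tea libraries lie within the range of the chow libraries.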

How the data were processed

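Polyadenylated RNA from white adipose tissue of 20 mice, extracted with TRIzol, was sequenced from stranded libraries, per the labels' protocols. The authors deposited whole-number read counts per gene, 1 file per library. Per the file headers, featureCounts 2.0.6 counted reads in paired mode on the GENCODE vM32 annotation of GRCm39, without a strand option and without counting pairs as fragments, so both reads of a pair may be counted. Of the counts from 1 to 20, 68.1% to 72.2% per library were even numbers. Totals and the minimum count are thus numbers of reads, not of pairs. The submitters' processing notes name fastp 0.23.2, HISAT2 2.2.1 and the build mm10, which differs from the annotation in the headers. Gene coordinates printed here are those of the files (GRCm39).

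Genes passing edgeR's filterByExpr with the 4 groups (minimum count 10, minimum total 15) were kept, 21306 of 56805, and library sizes were scaled by TMM in edgeR 4.0.16 (R 4.3.3). The diet term came from a quasi-likelihood fit of diet plus drink. The diet difference within each drink and the interaction came from a fit with 4 group means. P-values were adjusted by Benjamini-Hochberg over all tested genes, and genes below an adjusted p of 0.05 were called. The labels count mice per group, and p-values measure the spread between these libraries. No pair of libraries within a group agreed within sampling noise (lowest chi-square per gene 68.7 over 40 pairs). On simulated counts for 21306 genes the diet term recovered 26%, 46%, 74% and 98% of genes changed 1.5-, 2-, 4- and 8-fold (50 genes each), and 1 unchanged gene was called. Only 200 genes were changed there, without a drink effect, and libraries of a diet differed by size and random draws alone. Recovery at the number of genes called in the data was not simulated.

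Genes were named by rule: up to 15 rises and 15 falls by the diet term without overlap between the diets (mean log2 CPM of at least 1), the 3 members of each list with the lowest diet p, 6 genes by interaction p, and 12 chosen by name. A gene that this rule picks is not reported here, though it stays in the fits and in counts over all genes. Members of the clock lists, the genes called in each drink and in tea drinkers only, and the remaining genes without overlap were named after their values were seen. The comparison, the gene lists and the rule were chosen with earlier results of these data known. Of 904 listed symbols, 4 matched by an older symbol and 1 did not match. Of the 147 genes named by rule, 44 share exonic bases with another gene. DESeq2 1.42.0, limma voom 3.58.1, other filters and scalings, halved counts, a replicate block, and leaving out libraries were the alternatives.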

Additional observations from a re-analysis of the deposited data

Results flagged for a closer look

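Within groups of 5, a single library stood apart from the others for 16 genes, by a gap of more than 0.71 of the group's range. Such gaps were found in 20 of 168 groups tested. The limit of 0.71 gives about 1 in 20 for normally distributed values. The gaps were measured on CPM, which were not tested for that shape, so the count cannot be read as an excess. Among genes without overlap between the diets, Bhlhe41 was lowest in chow water replicate 1 (1.40 CPM), Nr1d2 in chow tea replicate 3 (56.4 CPM) and Pmvk in high-fat water replicate 4 (22.1 CPM). Zmat5 was lowest in chow water replicate 3 (3.84 CPM) and stood at 9.40 CPM in high-fat tea replicate 4. Gpc1 (57.0 CPM) and Epdr1 (23.4 CPM) were apart in high-fat tea replicate 1, and Rab29 (36.0 CPM) and Arntl (10.55 CPM) in high-fat water replicate 1. Muc2 stood at 305 CPM in chow water replicate 1 and 14.6 CPM in chow tea replicate 5.

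Other libraries stood apart in genes of metabolism and inflammation. Lep stood at 170.3 CPM in chow water replicate 5 and 942.7 CPM in high-fat tea replicate 5, and Fasn at 9745 CPM in chow water replicate 4 and 3529 CPM in high-fat tea replicate 2. High-fat tea replicate 4, the library with kidney transcripts, held the lowest level of Agmo (22.8 CPM) and Pparg (59.9 CPM) in its group. High-fat water replicate 1 held the highest level of Trem2 (101 CPM), Ccl2 (18.4 CPM) and Tnf (1.64 CPM) in its group. The part of these libraries in the diet differences was not tested beyond leaving each out.

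The diet difference depended on the drink for 5 named genes by the interaction test on all 20 libraries, which called 0 genes without 9 of them. The log2 change in tea minus that in water drinkers was −1.73 for Dbp, −2.95 for Scd2, −1.21 for Septin9, 3.52 for Rassf6 and −0.99 for Ano8.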

How the results depend on the processing

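The count for the diet term (3055) stayed within 1.5 times under every alternative, from 2235 to 3852 without 1 library, 4396 with DESeq2's test and 2161 with no filter on low counts. The count in tea drinkers (38) was 19 with no filter, 95 with a stricter filter, 921 with DESeq2, 73 with limma voom, 67 with halved counts, 292 without 3 libraries and 5 without 9. Without 1 library it ran from 10 (chow tea replicate 5) to 390 (high-fat tea replicate 3), with 11 without chow tea replicate 1, 14 without high-fat tea replicate 1 or 5, 20 without chow tea replicate 4, and 127 without chow water replicate 1. The count in both drinks (28) was 13 with no filter, 74 with a stricter filter, 458 with DESeq2, 55 with limma voom, 51 with halved counts, 216 without 3 libraries and 5 without 9, and ran from 7 to 259 without the same libraries as the lowest and highest in tea. The interaction count (14) was 4 with no filter, 691 with DESeq2, 6 with limma voom, 44 without 3 libraries and 0 without 9 by edgeR's test, and from 3 (6 libraries, among them chow water replicates 2 and 3) to 111 (high-fat tea replicate 5) without 1 library. The count in water drinkers (3232) was 2052 without 9 libraries, and from 1890 (high-fat water replicate 1) to 4461 without 1 library. The genes without overlap (40) were 190 without 3 libraries, 1317 without 9, and 40 to 139 without 1 library, a count that cannot fall when samples are left out at fixed scaling. The causes of the other changes were not tested.

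The sign changed for genes that were not called: Adipoq (0.037 without high-fat tea replicate 4, and down to −0.22 without another library), Cpe (−0.16 without 3 libraries, −0.21 without 9, −0.13 without high-fat water replicate 4, and up to 0.65 without another library), Rorb (−0.50 without 9) and Usp2 (−0.86 without 9). With the replicate number as a block, the diet term called 2582 genes, water drinkers 2611, tea drinkers 28, the interaction 14 and both drinks 22. The numbers do not pair the mice: of 30 same-numbered pairs of libraries 9 correlated over 0.1 (range −0.27 to 0.47), and 5 libraries correlated best with their own number. The common biological coefficient of variation between mice was 0.649. On simulated counts with 200 changed genes and no drink effect, the diet term recovered 26% of genes changed 1.5-fold.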
